A study of Mus musculus with 24 samples.

Results

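Chloride moves through a sensory neuron by way of channels and cotransporters in the plasma membrane and by way of chloride-proton exchangers in endosomes and lysosomes, and 10 genes of this transport were followed here. They were chosen by symbol as the ClC genes Clcn2 to Clcn7, the TMEM16 genes Ano1, Ano3 and Ano6, and Slc12a2, which encodes the cotransporter NKCC1. All 10 were found among the 47643 gene identifiers of the count files. The cells were GFP-positive cells sorted by flow cytometry from dissociated L4 dorsal root ganglia (DRG) of mice on a mixed C57BL/6 and AJ background aged 8 to 9 weeks, 3 days after a sciatic nerve crush on the opposite side. All mice carried Nav1.8-Cre and the Rosa26-ZsGreen reporter, control mice were Tsc2 flox/+ and Nav-Tsc2 mice were Tsc2 flox/null, with 4 mice of each genotype (replicates 1 and 2 male, 3 and 4 female) and 3 libraries of 100 cells from each mouse, 24 libraries in all. Both genotypes thus had a floxed Tsc2 allele, the null allele of Nav-Tsc2 mice was present in all of their cells, and Nav1.8-Cre is active mainly in unmyelinated nociceptors but also in some myelinated neurons. The comparison asked whether genes for plasma membrane and endolysosomal chloride transport differed between these genotypes.

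As background, NKCC1 carries chloride into the cell together with sodium and potassium, and DRG neurons keep it into adulthood, so their internal chloride stays high and opening of a chloride channel at the membrane lets chloride out and depolarizes them. ANO1 is the calcium-activated chloride channel best known in nociceptors, where it takes part in responses to heat and inflammatory mediators, and ANO6 is a calcium-activated scramblase of membrane lipids with channel activity. The ClC family is divided between channels of the plasma membrane, such as ClC-2, and exchangers of endosomes and lysosomes, ClC-3 to ClC-7, which trade chloride for protons and help set the acidity and ion content of those vesicles. Tsc2 restrains mTORC1, a kinase complex that is itself regulated at the lysosome.

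Counts on genes, summed over the 3 libraries of a mouse, ranged from 47959617 to 61290435, and those of single libraries from 8339220 to 34228180. Levels are given as counts per 1000000 (CPM) scaled by TMM, and differences as the log2 fold change of Nav-Tsc2 over control from edgeR's quasi-likelihood test with its standard error (SE). A gene is called higher or lower where the Benjamini-Hochberg adjusted p over all 17178 genes tested is under 0.05 and the log2 fold change is over 0.5 or under -0.5. Tsc2 itself was measured at 13.4, 24.7, 21.5 and 24.1 CPM in the control mice and at 8.70, 8.51, 7.30 and 10.95 CPM in the Nav-Tsc2 mice, with no overlap and a log2 fold change of -1.24 (SE 0.22, edgeR adjusted p = 0.00400). The nociceptor gene Scn10a was present at 510 to 791 CPM in control and 577 to 658 CPM in Nav-Tsc2 mice. RNA of other cells was also present: the 14 listed genes of satellite glia and Schwann cells summed to between 3073 and 3225 CPM in control and between 2043 and 2628 CPM in Nav-Tsc2 mice, with Prx under 1 CPM in every mouse, 0 of the 14 higher and 1 (S100b) lower in the edgeR test, against 1 higher and 3 lower at an unadjusted p under 0.05, and 0 higher and 2 lower by DESeq2. The 7 endothelial genes summed to between 0.651 and 1.85 CPM in control and between 7.73 and 20.1 CPM in Nav-Tsc2 mice. Cldn5, Cdh5 and Emcn were under 1 CPM in every mouse. All 3 genes that could be tested were higher, Flt1 among them at no more than 0.0602 CPM in control and 3.67 to 12.7 CPM in Nav-Tsc2 mice. The listed genes did not move together. Of those too low to test, Pecam1 and Emcn had lower means in Nav-Tsc2 mice (0.315 and 0.0309 CPM) than in control mice (0.422 and 0.384 CPM). Cdh5 and Cldn5 had higher ones. The 9 macrophage genes summed to between 5.24 and 9.88 CPM in control and between 10.5 and 27.2 CPM in Nav-Tsc2 mice, with C1qa and Ptprc under 1 CPM in every mouse. Of 7 tested 1 was higher, Cx3cr1, at no more than 0.0602 CPM in control and 2.82 to 9.33 CPM in Nav-Tsc2 mice. C1qb and Ptprc had lower means in Nav-Tsc2 mice (0.574 and 0.0129 CPM) than in control mice (1.75 and 0.203 CPM). The other listed macrophage genes had higher means, with overlap between the genotypes for Aif1, C1qa, Lyz2 and Mrc1. The part of these cells in the differences below was not tested, and in pooled cells a change in the number of cells of a type cannot be told apart from a change in RNA per cell.

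Of the 10 chloride transport genes, 9 had enough counts to be tested, 1 was higher in Nav-Tsc2 mice and 0 were lower. Among all genes tested, 9.12% were called higher and 8.00% lower. Clcn5 was the gene that rose, close to 3-fold. No member was lower at an unadjusted p under 0.05 either, and DESeq2 and limma-voom also called 0 members lower. Without the limit on the fold change 2 members were higher, Clcn5 and Ano6, beside 10.8% of all genes, and 0 were lower, beside 10.2%.

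**Figure D1:**
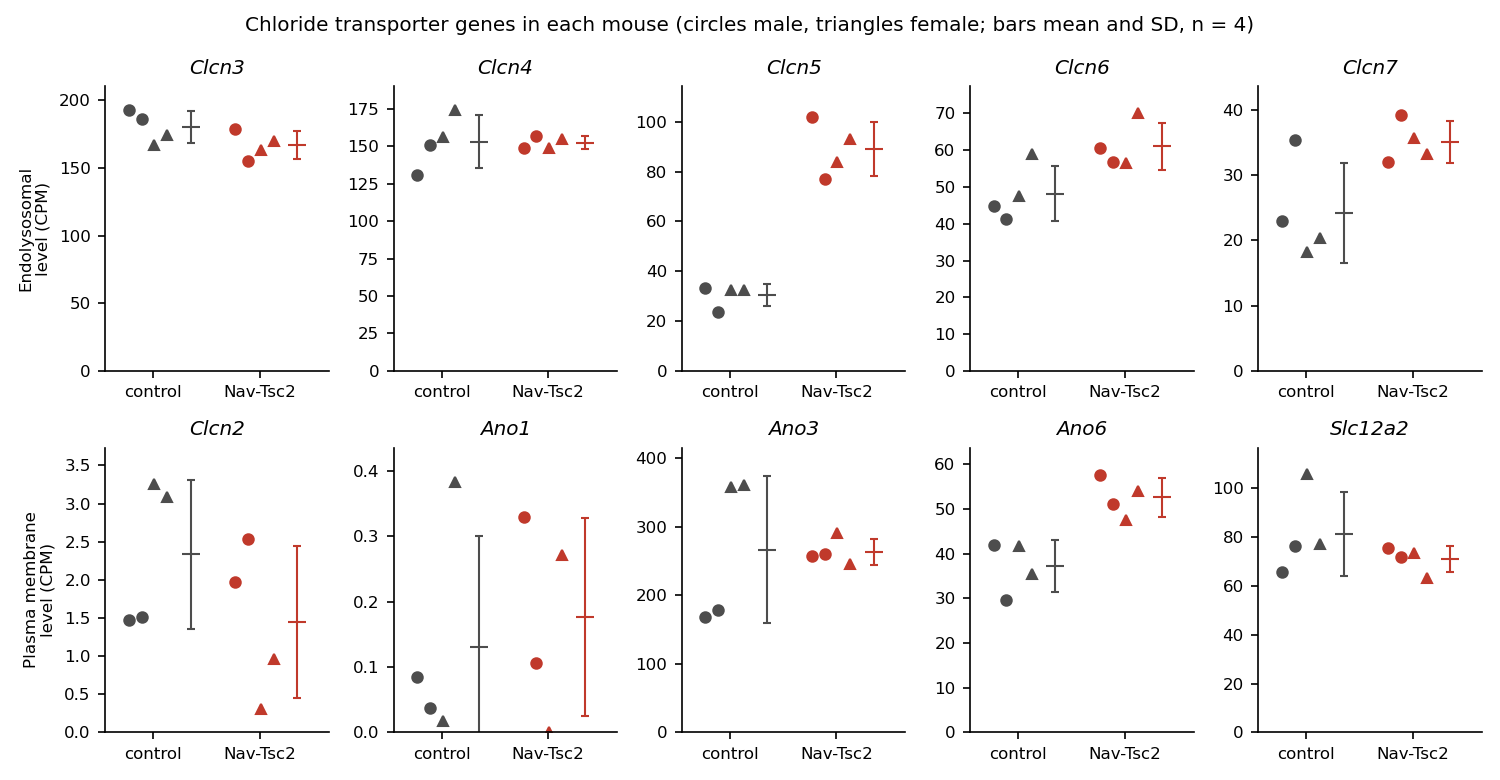
Level in CPM (linear axes from 0) of each of the 10 genes in every mouse, with endolysosomal exchangers in the upper row and plasma membrane channels and NKCC1 in the lower row. Circles are male and triangles female mice, and the bars give the mean and SD of 4 mice. The 4 Nav-Tsc2 mice lie above all control mice for Clcn5 (77.1 to 102 against 23.7 to 33.1 CPM) and Ano6 (47.5 to 57.6 against 29.6 to 42.0 CPM), and the groups overlap for the other 8 genes.

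Clcn5 lies on chromosome X at 7153810 to 7319358 on the minus strand (mm10, the build of GRCm38) and encodes ClC-5, an exchanger of early endosomes whose loss impairs endocytosis in the kidney. It was measured at 33.1, 23.7, 32.5 and 32.4 CPM in control replicates 1 to 4 and at 102, 77.1, 84.0 and 93.1 CPM in Nav-Tsc2 replicates 1 to 4. The lowest Nav-Tsc2 mouse was thus above the highest control mouse by more than the whole spread of the controls. Mean levels were 30.4 ± 4.49 CPM (SD, n = 4) in control and 89.0 ± 10.7 CPM (SD, n = 4) in Nav-Tsc2 mice, a 2.92-fold difference. The log2 fold change was 1.55 (SE 0.14, 95% interval 1.24 to 1.86, edgeR adjusted p = 0.000120). All 16 alternative fits also called Clcn5 higher, with log2 fold changes between 1.45 and 1.61.

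The separate libraries showed the same separation for Clcn5. The 12 control libraries ran from 18.8 to 45.2 CPM with a median of 30.9 CPM, and the 12 Nav-Tsc2 libraries from 56.9 to 133 CPM with a median of 85.5 CPM. Every Nav-Tsc2 library was therefore above every control library. On the log2(CPM + 1) scale the SD between libraries of a mouse was 0.39 and the SD between the mouse means of a genotype was 0.18. Each mouse mean averages 3 libraries, which narrows its spread, so these values do not rank libraries against mice. For Clcn3 and Clcn4 the libraries of the genotypes lay over one another, from 159 to 217 against 146 to 198 CPM and from 103 to 197 against 132 to 166 CPM.

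**Figure D2:**
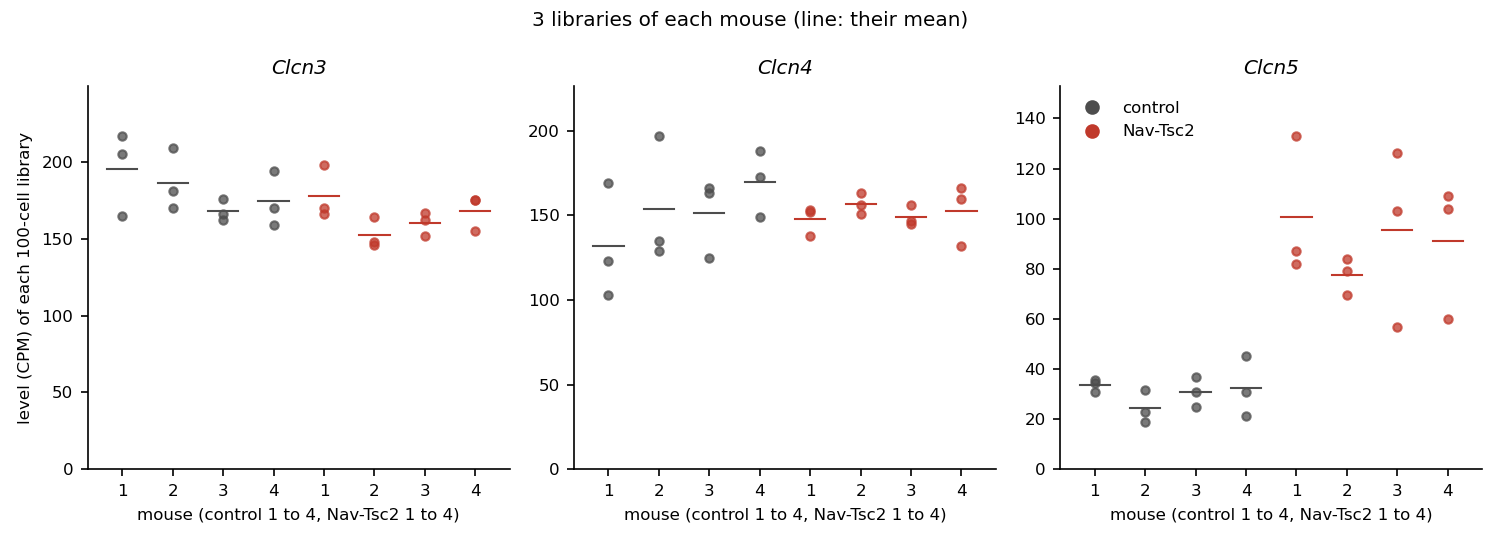
Level in CPM (linear axes from 0) of Clcn3, Clcn4 and Clcn5 in each library of 100 cells, 3 libraries per mouse, with the mean of each mouse as a line; control mice in grey and Nav-Tsc2 mice in red. All 12 Nav-Tsc2 libraries lie above all 12 control libraries for Clcn5, while the libraries of both genotypes overlap for Clcn3 and Clcn4.

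Clcn3 and Clcn4 encode ClC-3 and ClC-4, endosomal exchangers that can assemble with each other. Clcn3 (chromosome 8, 60910389 to 60983300, minus strand) was measured at 193, 186, 167 and 174 CPM in control and 179, 155, 163 and 170 CPM in Nav-Tsc2 mice. These ranges overlapped, and the log2 fold change of -0.11 (SE 0.08, edgeR adjusted p = 0.380) had a 95% interval of -0.29 to 0.07. Clcn4 (chromosome 7, 7282309 to 7300851, minus strand) was measured at 131, 151, 156 and 174 CPM in control and 149, 157, 149 and 155 CPM in Nav-Tsc2 mice. All 4 Nav-Tsc2 mice fell inside the control range, and the log2 fold change was -0.01 (SE 0.09, 95% interval -0.21 to 0.20, edgeR adjusted p = 0.979). The intervals of both genes leave out the limit of 0.5 on either side. Of the Clcn4 exon bases 11.5% are shared with Gm45631 on the other strand, and the kit did not mark strand.

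Clcn6 and Clcn7 encode the exchangers of late endosomes and lysosomes, and ClC-7 needs the subunit encoded by Ostm1 for its stability. Clcn6 (chromosome 4, 148004259 to 148038821, minus strand) was at 44.9, 41.4, 47.6 and 58.9 CPM in control and 60.5, 56.8, 56.4 and 70.2 CPM in Nav-Tsc2 mice. Only control replicate 4 reached into the Nav-Tsc2 range, and the log2 fold change of 0.34 (SE 0.13, 95% interval 0.05 to 0.63) had an unadjusted edgeR p of 0.0266 and an adjusted p of 0.0952. Clcn7 (chromosome 17, 25133391 to 25162104, plus strand) was at 23.0, 35.4, 18.2 and 20.3 CPM in control and 32.1, 39.3, 35.7 and 33.3 CPM in Nav-Tsc2 mice. Control replicate 2 lay among the Nav-Tsc2 mice while the other three control mice lay below them. The log2 fold change of Clcn7 was 0.54 (SE 0.20, 95% interval 0.09 to 0.99, edgeR adjusted p = 0.0890), which did not pass. Without control replicate 2 it was 0.78 (edgeR adjusted p = 0.00624), which passed, and 1 library of that mouse stood at 52.8 CPM, the highest Clcn7 value of all 24 libraries.

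Ostm1, the partner of Clcn7, did pass. It was measured at 30.2, 35.0, 27.9 and 33.0 CPM in control and 59.1, 57.5, 51.8 and 64.1 CPM in Nav-Tsc2 mice, with no overlap. The log2 fold change was 0.88 (SE 0.11, edgeR adjusted p = 0.000674). The ratio of the Ostm1 level to the Clcn7 level in CPM was 0.990 to 1.63 in control and 1.45 to 1.92 in Nav-Tsc2 mice, and these ranges overlapped.

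**Figure D3:**
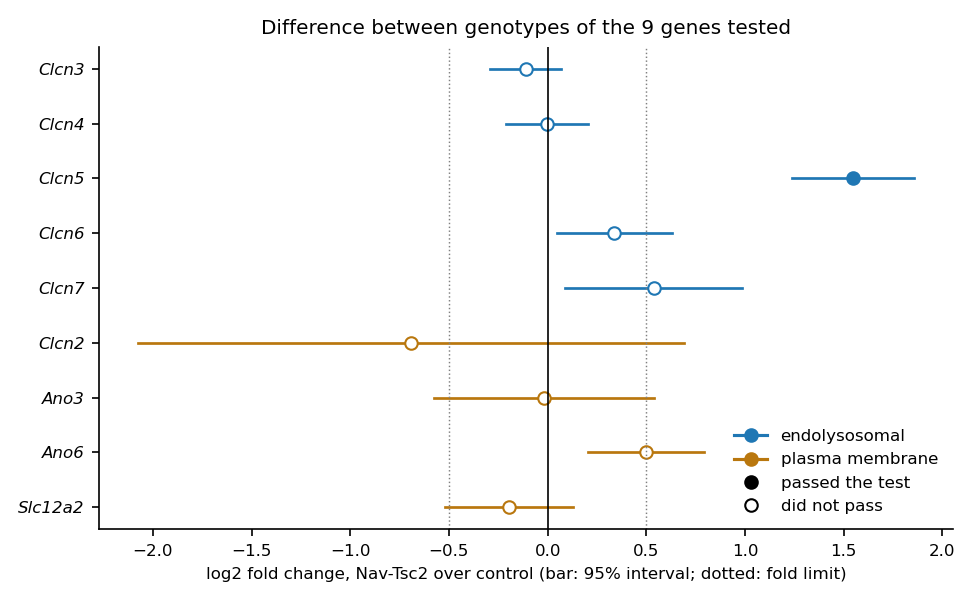
Log2 fold change of Nav-Tsc2 over control for the 9 genes tested, with the 95% interval of the edgeR fit as a bar, endolysosomal exchangers in blue and plasma membrane genes in ochre; filled points passed the test and dotted lines mark the limit of 0.5. Clcn5 (1.55) is the filled point, Ano6 (0.50) and Clcn7 (0.54) sit at the limit, and Clcn2 has the widest interval (-2.08 to 0.69).

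The balance among the exchangers was described per kilobase of exon, since genes of different length can be compared only on that scale. In control mice Clcn4 made up 36.9% to 43.0% of the summed level of the 5 exchangers, Clcn3 21.7% to 27.3%, Clcn6 15.8% to 21.1%, Clcn7 8.13% to 15.1% and Clcn5 4.67% to 6.98%. In Nav-Tsc2 mice the share of Clcn5 was 13.2% to 16.8%, that of Clcn4 32.8% to 35.8% and that of Clcn3 17.8% to 19.8%. The shares of these 3 genes did not overlap between the genotypes, whereas those of Clcn6 and Clcn7 did. Clcn5 per kilobase stood at 0.190 to 0.290 of the Clcn3 level in control and 0.739 to 0.849 in Nav-Tsc2 mice. The summed level of the 5 exchangers was 43.8 ± 2.49 CPM per kilobase (SD, n = 4) in control and 52.2 ± 1.72 CPM per kilobase (SD, n = 4) in Nav-Tsc2 mice, and no Nav-Tsc2 mouse was as low as the highest control mouse. Shares of a sum move together, so the lower shares of Clcn3 and Clcn4 stand beside CPM levels of those genes that did not pass the test.

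Promoter windows of the exchangers other than Clcn3 are shown because genes of the lysosomal system often carry the palindrome CACGTG. This palindrome reads the same on both strands and is the core of the site bound by the MiT/TFE factors that mTORC1 restrains. Each line holds the 250 bases before a RefSeq transcription start (GRCm38.p6), 5′ to 3′ on the strand of the gene, with the palindrome in capitals. Clcn5 has a window at chrX:7319359-7319608 for its upstream start and one at chrX:7188715-7188964 for its downstream start, both on the minus strand. The windows of Clcn4 (chr7:7299558-7299807, minus strand), Clcn6 (chr4:148038814-148039063, minus strand) and Clcn7 (chr17:25133141-25133390, plus strand) are those that hold a match.
Clcn5 upstream start: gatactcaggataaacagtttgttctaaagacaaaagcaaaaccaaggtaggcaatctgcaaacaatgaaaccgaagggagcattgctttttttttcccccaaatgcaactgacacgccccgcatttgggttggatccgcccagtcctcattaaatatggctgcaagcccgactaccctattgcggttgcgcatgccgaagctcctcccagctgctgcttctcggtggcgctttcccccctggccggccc
Clcn5 downstream start: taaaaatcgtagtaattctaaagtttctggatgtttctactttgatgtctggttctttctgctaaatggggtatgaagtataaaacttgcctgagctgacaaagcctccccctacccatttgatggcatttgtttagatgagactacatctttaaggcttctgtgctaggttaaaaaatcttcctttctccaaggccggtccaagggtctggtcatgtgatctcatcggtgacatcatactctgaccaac
Clcn4: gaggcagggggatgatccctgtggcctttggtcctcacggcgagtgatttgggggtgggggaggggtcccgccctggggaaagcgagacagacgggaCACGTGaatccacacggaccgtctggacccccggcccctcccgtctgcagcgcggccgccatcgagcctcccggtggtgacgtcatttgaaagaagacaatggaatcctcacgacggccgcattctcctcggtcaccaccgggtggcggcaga
Clcn6: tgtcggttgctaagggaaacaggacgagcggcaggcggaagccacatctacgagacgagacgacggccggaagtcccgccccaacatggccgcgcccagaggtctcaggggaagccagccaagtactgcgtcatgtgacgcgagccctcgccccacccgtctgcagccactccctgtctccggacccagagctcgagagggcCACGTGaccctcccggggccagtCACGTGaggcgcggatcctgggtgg
Clcn7: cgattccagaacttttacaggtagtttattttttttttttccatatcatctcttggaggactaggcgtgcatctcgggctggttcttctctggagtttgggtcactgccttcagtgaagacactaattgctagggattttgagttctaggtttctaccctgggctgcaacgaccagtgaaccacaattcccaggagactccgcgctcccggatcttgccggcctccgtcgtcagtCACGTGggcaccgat

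Neither Clcn5 window holds CACGTG. The windows of Clcn3, which are not printed, hold none either. Only these exact 6 bases were searched for, so other sequences that the factors may bind are not marked in any window. Clcn6 holds 2 matches, whose first bases lie 48 and 25 bases before the start, Clcn7 holds 1 at 15 bases and Clcn4 1 at 153 bases, while the second windows of Clcn4 and Clcn7 hold none. The 9 members in the table have 14 windows, of which 4 hold a match, the fourth being in Ano3, beside 6.02% of all 32851 windows of the same length. Among the neighbours of the exchangers, the window of Mcoln1 holds 2 matches and those of Ostm1 and Tpcn2 hold none. A match in such a window is a description of its letters and was not tested as a binding site.

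At the plasma membrane, NKCC1 and the membrane channels were described next. Slc12a2 (chromosome 18, 57878678 to 57946821, plus strand) was measured at 65.6, 76.4, 106 and 77.4 CPM in control and 75.5, 71.8, 73.7 and 63.3 CPM in Nav-Tsc2 mice. Control replicate 3 was the highest mouse, and the others of both genotypes overlapped. The log2 fold change of Slc12a2 was -0.20 (SE 0.14, 95% interval -0.52 to 0.13, edgeR adjusted p = 0.383), so that a fall beyond the limit of -0.5 was still just within the interval and a rise of 0.5 was not.

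Ano1 (chromosome 7, 144588549 to 144751974, minus strand) was close to absent from these libraries. It had 5, 2, 1 and 19 counts in control and 16, 6, 0 and 16 counts in Nav-Tsc2 mice, at most 0.382 CPM in any mouse, and was left out of the test by the filter on low counts. In Nav-Tsc2 replicate 3 the 0 counts allow a level of up to 0.0489 CPM, the level of 3 counts, which covers counting error only. The counts came from few libraries: 7 of the 12 control and 6 of the 12 Nav-Tsc2 libraries held none. A difference in this nociceptor channel was not detectable at this depth.

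Ano6 (chromosome 15, 95790843 to 95974751, plus strand), the scramblase, was at 42.0, 29.6, 41.6 and 35.5 CPM in control and 57.6, 51.0, 47.5 and 54.1 CPM in Nav-Tsc2 mice. The genotypes did not overlap, a pattern shared by 14.6% of all genes tested in this direction. Its log2 fold change of 0.499 (SE 0.13, 95% interval 0.21 to 0.79) had an edgeR adjusted p of 0.0244, past the threshold on p and just short of the limit of 0.5, so Ano6 was not called. It was called in 6 of the 16 alternative fits, among them those without control replicate 1 (0.56), control replicate 3 (0.55) or Nav-Tsc2 replicate 3 (0.55), and its log2 fold change ran from 0.40 to 0.56 over all 16. The edgeR adjusted p rose past 0.05 without control replicate 4 (0.0571) or Nav-Tsc2 replicates 1 (0.0754), 2 (0.0558) or 4 (0.0651). Of its exon bases 2.74% are shared with genes on the other strand.

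Clcn2 (chromosome 16, 20702964 to 20717746, minus strand), the plasma membrane ClC channel, was low at 1.47, 1.51, 3.26 and 3.09 CPM in control and 1.97, 2.53, 0.310 and 0.965 CPM in Nav-Tsc2 mice. The genotypes overlapped, and the log2 fold change of -0.69 (SE 0.62, edgeR adjusted p = 0.484) had a 95% interval from -2.08 to 0.69, which holds changes of more than 1 log2 unit downwards.

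Ano3 (chromosome 2, 110655201 to 110950923, minus strand) encodes a TMEM16 protein of DRG neurons that acts mainly as a scramblase and as a partner of a sodium-activated potassium channel. It was measured at 169, 179, 359 and 361 CPM in control and 258, 260, 291 and 246 CPM in Nav-Tsc2 mice. The Nav-Tsc2 mice all lay in the gap between the male and the female control mice. The log2 fold change over both sexes was -0.02 (SE 0.25, 95% interval -0.58 to 0.54, edgeR adjusted p = 0.972).

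Because of that gap the genotypes were set side by side within each sex. In male mice Ano3 was higher in Nav-Tsc2, with a log2 fold change of 0.57, and in female mice it was lower, with a log2 fold change of -0.43, and neither sex showed overlap between its 2 control and 2 Nav-Tsc2 mice. The female minus male difference of these log2 fold changes was -1.001 (SE 0.15), with an unadjusted edgeR p of 0.000210 and an adjusted p of 0.132 for the interaction over all genes tested. Clcn2 had a pattern of the same kind, with log2 fold changes of 0.59 in male and -2.31 in female mice, and an interaction of -2.90 (SE 0.91, unadjusted edgeR p = 0.0132, adjusted p = 0.390). Of all genes tested, 2.06% were higher in male and lower in female Nav-Tsc2 mice without overlap in either sex. In the edgeR test of the interaction 0 of the 9 members passed at an adjusted p under 0.05 and 2 had an unadjusted p under 0.05, beside 0.00582% and 9.22% of all genes tested.

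The split of Ano3 by sex among the control mice was shared by Scn11a, a sodium channel of small-diameter nociceptors, which was at 179, 233, 501 and 409 CPM in control and 348, 320, 344 and 319 CPM in Nav-Tsc2 mice. P2rx3, a purinergic receptor of nociceptors, was at 151, 139, 254 and 310 CPM in control and 291, 293, 359 and 288 CPM in Nav-Tsc2 mice. Both were picked from the nociceptor list after their values were seen, and their part in the Ano3 values was not tested. Clcn5 did not split in this way: its log2 fold change was 1.65 in male and 1.45 in female mice, without overlap in either sex, and the interaction of -0.21 (SE 0.28) had an edgeR adjusted p of 0.885. Ano6 was also higher without overlap in both sexes, by 0.60 in male and 0.40 in female mice on the log2 scale. For Clcn5 and Ano6 this follows from the lack of overlap over all mice, which 14.6% of all genes tested showed in this direction. Slc12a2 had log2 fold changes of 0.05 in male and -0.42 in female mice (edgeR adjusted p = 0.629 for the interaction).

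**Figure D4:**
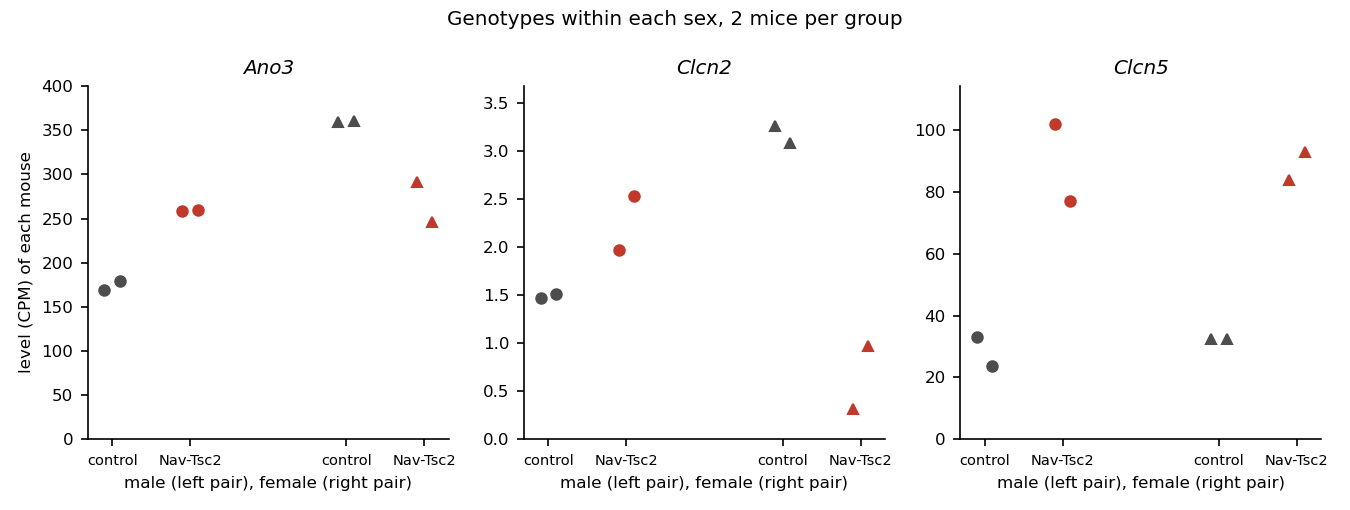
Level in CPM (linear axes from 0) of Ano3, Clcn2 and Clcn5 in each mouse, with the 4 male mice at left (circles) and the 4 female mice at right (triangles), control in grey and Nav-Tsc2 in red. Ano3 and Clcn2 are higher in male and lower in female Nav-Tsc2 mice than in controls of the same sex, and Clcn5 is higher in both sexes.

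Set beside each other, the compartments differed in their medians. The 5 endolysosomal members had a median log2 fold change of 0.34, with 1 higher, 0 lower and 4 not called, and the 4 plasma membrane members that were tested had a median of -0.11, with none called, beside a median of 0.01 over all genes tested. With each mouse left out in turn the membrane median ran from -0.19 to 0.07, and it was above 0 without control replicate 3. These medians are descriptions of a few genes, and Ano6 at the membrane moved more than Clcn3 and Clcn4 in endosomes. Per kilobase, the summed level of the 5 exchangers stood at 0.667 to 1.29 of the summed level of the 5 membrane genes in control and 0.991 to 1.22 in Nav-Tsc2 mice, with overlap, and most of the membrane sum was Ano3.

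The order of the levels per kilobase of exon in control mice was led by Ano3 at 37.0 ± 14.9 CPM per kilobase (SD, n = 4), followed by Clcn4 at 17.8 ± 2.03. Clcn3 at 10.5 ± 0.681, Clcn6 at 8.13 ± 1.28, Slc12a2 at 7.46 ± 1.60 and Clcn7 at 4.58 ± 1.45 came next, and each of these neighbours overlapped the next in its range over mice. Ano6 at 3.03 ± 0.477 and Clcn5 at 2.66 ± 0.392 also overlapped, and Clcn2 at 0.388 ± 0.161 and Ano1 at 0.0209 ± 0.0272 were last. In Nav-Tsc2 mice Clcn5 stood at 7.77 ± 0.938 CPM per kilobase (SD, n = 4), rank 5 of the 10 in place of rank 8, between Clcn3 at 9.77 ± 0.575 and Clcn7 at 6.64 ± 0.599. Its range over Nav-Tsc2 mice, 6.73 to 8.88, overlapped those of Clcn7 (6.07 to 7.43) and Slc12a2 (5.80 to 6.91). The lengths are those of all annotated exons of a gene joined, and the isoforms used in these cells were not resolved.

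Other genes of chloride and endolysosomal ion transport were taken from 8 lists by function. Of 82 genes listed, 69 were tested, 11 were higher (15.9%) and 6 lower (8.70%), beside 9.12% and 8.00% of all genes. The count of higher genes fell to 7 without Nav-Tsc2 replicate 2 and to 7 without Nav-Tsc2 replicate 3, and was 18 by DESeq2. The median log2 fold change of the 69 genes was 0.21.

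Of the 7 other cation-chloride cotransporters tested, 1 was higher and 0 were lower by edgeR, with 1 higher and 0 lower at an unadjusted p under 0.05 and by DESeq2. The gene was Slc12a7, which encodes the potassium-chloride cotransporter KCC4. It was at 4.34, 4.45, 13.3 and 4.78 CPM in control and 40.6, 43.3, 9.10 and 52.1 CPM in Nav-Tsc2 mice, with a log2 fold change of 2.43 (SE 0.55, edgeR adjusted p = 0.0132). Nav-Tsc2 replicate 3 lay inside the control range. Slc12a5, which encodes the chloride extruder KCC2 of central neurons, was at most 0.163 CPM in control and 0.708 CPM in Nav-Tsc2 mice and was left out of the test by the filter. Of the 13 regulators in the WNK-SPAK pathway, the kinases that switch NKCC1 on and their partners, 0 passed in edgeR, against 2 higher and 2 lower at an unadjusted p under 0.05 and 1 higher by DESeq2. Wnk1 had a log2 fold change of 0.08 (95% interval -0.16 to 0.32) and Stk39, which encodes the kinase SPAK, one of 0.21 (95% interval -0.10 to 0.52).

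Of the 6 ClC channels and auxiliary subunits tested, 1 was higher (Ostm1) and 1 lower. The lower gene was Mlc1, a membrane protein of astrocytes and other glia that works with the ClC-2 subunit GlialCAM, at 2.64 to 6.49 CPM in control and 0.288 to 1.10 CPM in Nav-Tsc2 mice (log2 fold change -2.61, SE 0.48). Of the 6 other TMEM16 genes tested, 1 was lower, Ano5, at 6.15 to 8.15 CPM in control and 1.06 to 3.03 CPM in Nav-Tsc2 mice (log2 fold change -2.11, SE 0.37). Of the 5 tested genes of volume-regulated and proton-activated channels 2 were lower: Lrrc8c fell by 0.74 (SE 0.14) and Lrrc8b by 0.59 (SE 0.13) on the log2 scale, without overlap between genotypes. Both encode subunits of the volume-regulated anion channel. Its obligatory subunit Lrrc8a was at 957, 932, 629 and 700 CPM in control and 626, 749, 647 and 415 CPM in Nav-Tsc2 mice, with overlap and a log2 fold change of -0.40 (SE 0.19, edgeR adjusted p = 0.177), and 68.3% of its exon bases are shared with Gm28035 and 1700084E18Rik.

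Of the 9 other anion channel and tweety genes tested, 3 were higher and 1 lower. Clic4, one of the chloride intracellular channel proteins, rose from 3.76 to 7.21 CPM in control to 31.2 to 42.6 CPM in Nav-Tsc2 mice (log2 fold change 2.61, SE 0.22), and its relative Clic1 rose by 0.75 (SE 0.09) on the log2 scale, to 464 to 531 CPM. Best1, a calcium-activated anion channel, had a log2 fold change of 1.26 (SE 0.39, edgeR adjusted p = 0.0457). Ttyh1, a tweety protein found in neurons and glia, was at 23.5 to 36.0 CPM in control and 17.4 to 23.96 CPM in Nav-Tsc2 mice, with overlap, and its log2 fold change of -0.54 (SE 0.16, edgeR adjusted p = 0.0445) was just past both limits. Beside Mlc1 and Ttyh1 stand the glial genes Fabp7, at 171 to 281 CPM in control and 142 to 230 CPM in Nav-Tsc2 mice, and S100b, at 712 to 1110 CPM in control and 27.9 to 188 CPM in Nav-Tsc2 mice. Their part in these differences was not tested.

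Of the 13 anion exchangers and bicarbonate transporters tested, 4 were higher, Slc4a7, Slc4a8, Slc4a10 and Slc26a10, and 0 were lower by edgeR, with 0 lower at an unadjusted p under 0.05 and by DESeq2. Slc4a8, which imports bicarbonate with sodium in exchange for chloride, was at 2.71 to 6.12 CPM in control and 10.0 to 14.0 CPM in Nav-Tsc2 mice (log2 fold change 1.24, SE 0.27). The sodium-coupled bicarbonate transporters Slc4a7 and Slc4a10 had log2 fold changes of 0.95 (SE 0.27) and 1.20 (SE 0.35), and Slc4a10 stayed at or under 5.25 CPM in every mouse. Slc26a10 did not reach 1 CPM in any mouse.

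Of the 10 tested cation channels and exchangers that share endosomes and lysosomes with ClC-3 to ClC-7, 2 were higher and 1 lower. Mcoln1, the lysosomal cation channel TRPML1, was at 19.5, 30.4, 42.1 and 37.8 CPM in control and 73.5, 71.3, 63.4 and 78.4 CPM in Nav-Tsc2 mice (log2 fold change 1.14, SE 0.21, edgeR adjusted p = 0.00480). Tpcn2, a two-pore channel of lysosomes, was at 3.12 to 6.10 CPM in control and 12.1 to 15.7 CPM in Nav-Tsc2 mice (log2 fold change 1.44, SE 0.24). Slc9a9, a sodium-proton exchanger of endosomes, was at 285 to 417 CPM in control and 146 to 184 CPM in Nav-Tsc2 mice (log2 fold change -1.09, SE 0.12). None of these 3 genes overlapped between the genotypes.

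Ostm1, Mlc1, Ano5, Lrrc8b, Lrrc8c, Clic1, Clic4, Slc4a8, Mcoln1, Tpcn2 and Slc9a9 were called in the same direction in all 16 alternative fits. Slc12a7 was called in 15 of the 16 and not with the replicate number as a block. Best1 was not called without control replicate 3 or without any 1 of the Nav-Tsc2 mice, and Slc4a7 not without control replicates 2, 3 or 4 or any 1 of the Nav-Tsc2 mice. Ttyh1 was not called without control replicates 1, 2 or 3 or Nav-Tsc2 replicates 1, 2 or 4. Slc4a10 lost its call without control replicates 1, 2 or 4 or Nav-Tsc2 replicates 2, 3 or 4, and Slc26a10 without control replicates 1, 2 or 4 or any 1 of the Nav-Tsc2 mice.

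**Figure D5:**
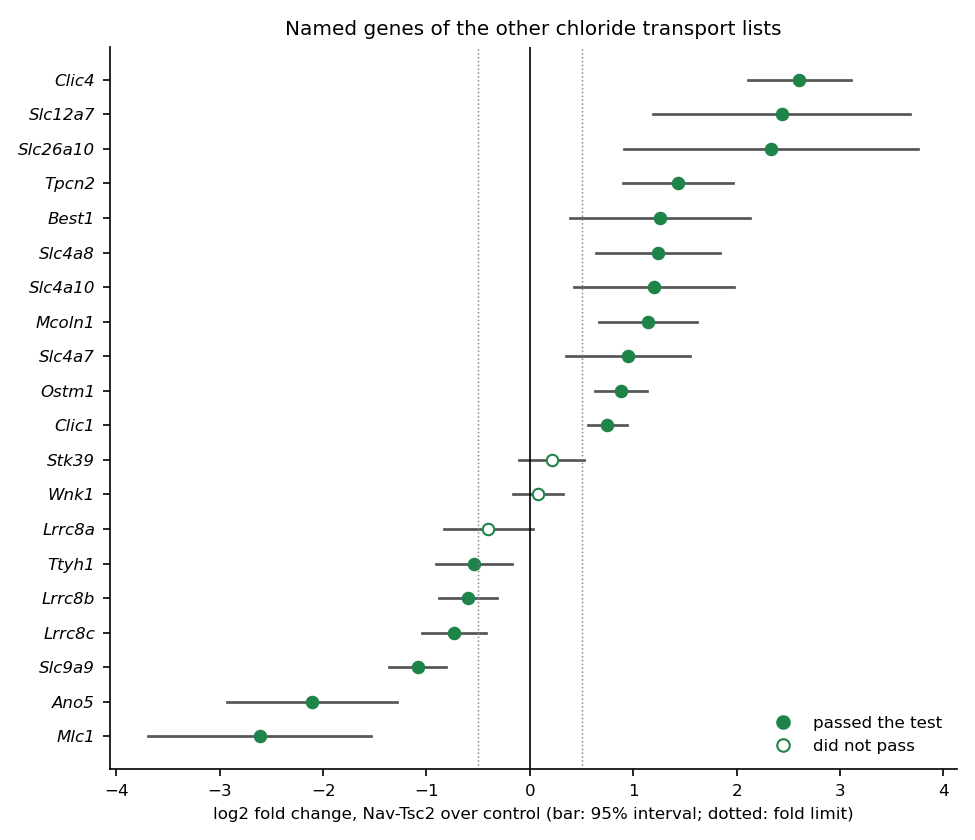
Log2 fold change of Nav-Tsc2 over control for the named genes of the 8 other lists, with the 95% interval of the edgeR fit as a bar; filled points passed the test and dotted lines mark the limit of 0.5. The 11 higher genes run from Clic1 (0.75) to Clic4 (2.61) and the 6 lower genes from Ttyh1 (-0.54) to Mlc1 (-2.61), with Wnk1, Stk39 and Lrrc8a as open points.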

How the data were processed

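The data were 24 RNA-seq libraries made from 100 sorted cells each. The authors amplified cDNA with the SMARTer Ultra Low kit, aligned 50-base single reads to mm10 with STAR and deposited raw HTSeq counts per gene and library. The authors' deposited results table (normalized counts, fold changes and p-values of their own comparison) was not used. The kit marks no strand and no molecular identifiers were added.

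For each mouse its 3 libraries were added together, as the authors collapsed technical replicates, and 17178 genes passed edgeR's filterByExpr. They were fitted with edgeR 4.0.16 (TMM, quasi-likelihood F test) in R 4.3.3 without covariates, with p-values adjusted by Benjamini-Hochberg over all of them. The SE was derived from the log2 fold change and F. DESeq2 1.42.0 and limma 3.58.1 gave alternatives, and the scripts were tested on simulated counts. Rows of HTSeq that name no gene were left out, a median of 49.7% of a library's total. Gene models were GENCODE vM21 (GRCm38), in which 47224 identifiers matched a symbol, and promoters were RefSeq's.

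The genes named are Tsc2, the 10 members, every gene called in the 8 chloride transport lists, and Slc12a5, Wnk1, Stk39, Ostm1, Lrrc8a and Ttyh1; a gene that the rule also names is not reported here. Marker genes that are named (Scn10a, Scn11a, P2rx3, S100b, Fabp7, Prx, Flt1, Pecam1, Cldn5, Cdh5, Emcn, Cx3cr1, Aif1, C1qa, C1qb, Lyz2, Mrc1 and Ptprc) come from the marker lists and were picked with their values known. Members and lists were chosen with earlier results of these data known. The fibroblast genes, the fifth marker list besides those of neurons, glia, endothelium and macrophages, had 0 of 6 called by edgeR (0 at an unadjusted p under 0.05, 0 by DESeq2, 1 higher by limma-voom), and of the 14 neuronal genes 1 was higher and 4 lower.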

Additional observations from a re-analysis of the deposited data

Results flagged for a closer look

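Clcn5 in control replicate 2 stood at 23.7 CPM, apart from the other three control mice at 32.4 to 33.1 CPM. Its gap to the nearest of them was 0.922 of the range of the 4 mice, above Dixon's critical value at the 95% level. It was the 1 mouse found this way in 20 groups of 4, and chance alone gives about 1 in 20. Without that mouse Clcn5 was still called higher.

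The genotype difference of Ano3 ran in opposite directions in the sexes, higher in both male and lower in both female Nav-Tsc2 mice, and the female minus male difference of the log2 fold changes was -1.001 (edgeR adjusted p = 0.132). With no filter on low counts the adjusted p of the same term was 0.000126 in edgeR, where 618 of 30194 genes passed in place of 1 of 17178. The difference for Clcn2 was -2.90 (edgeR adjusted p = 0.390), at levels of at most 3.26 CPM. Each sex had 2 mice per genotype.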

How the results depend on the processing

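Clcn5 was called higher in all 16 alternative fits, and 0 members were lower in any of them. The count of members higher was 2 with libraries weighted equally, 2 with no fold limit and 3 in a limma-voom fit of the 24 libraries in which the mouse was a random effect, and 1 to 2 when each mouse was left out in turn; Ano6 and Clcn7 were the genes added. The count of list genes higher was 18 by DESeq2, 18 in the limma-voom fit and 5 at an adjusted p under 0.01, and 7 to 14 when each mouse was left out. The median log2 fold change of endolysosomal members was 0.26 to 0.45 when each mouse was left out. With no filter on low counts 1 member, Ano3, had an interaction with sex. The members that changed sign, without being called, were Ano3, at 0.074 with a term for sex, 0.074 in the limma-voom fit and -0.19 to 0.16 with each mouse left out, and Clcn4, at 0.019 in the limma-voom fit and -0.073 to 0.060 with each mouse left out. The cause of these shifts was not tested.

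With the replicate number as a block, 2 members were higher (Clcn5 and Ano6), 8 list genes were higher and 6 lower, and Ano3 was at 0.073 and Clcn4 at 0.0014. Deviations of same-numbered mice from their group means correlated by -0.043 to 0.050 over 8255 genes, not every mouse correlated best with its own number, and the numbers were not taken as a pairing. Among the 9 members tested, Clcn2, at no more than 3.26 CPM in any mouse, had the largest SE (0.62), and Ano1 was too low to test.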
